A study of Mus musculus with 6 samples.

Results

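The core circadian loop genes are the 10 genes of the transcriptional clock: the activators Arntl, Clock and Npas2, the repressors Per1, Per2, Per3, Cry1 and Cry2, and the kinases Csnk1d and Csnk1e. They were taken by gene symbol from the 36210 gene rows of the deposited expression table, and each of the 10 had 1 row. All 10 passed the filter on low counts, as did 20363 gene rows in all. The list was drawn up with earlier results of the comparison between treated and vehicle-injected mice in view. The values of the 10 genes in that comparison, and any count of them past a threshold, are therefore a description and support nothing.

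The libraries came from brain of APP/PS1 mice aged 8 months, a transgenic Alzheimer's disease model that forms amyloid plaques. In the AVE0991 group, 3 libraries came from mice injected intraperitoneally with AVE0991 at 10 mg per kg every day over 30 days. AVE0991 is a synthetic agonist of the angiotensin-(1-7) receptor Mas. In the vehicle group, 3 libraries came from mice of the same line given sterile 0.9% saline by the same route and schedule, so both groups carry the transgenes. The labels neither name the promoters of the transgenes nor tie each library to an animal of its own, and p-values therefore measure only the spread between these libraries, which may be technical. The sources used here do not give the hour at which tissue was taken, and hour of collection and treatment cannot be told apart.

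In the mammalian clock the proteins of Arntl (BMAL1) and Clock pair up, bind the E-box sequence and switch on Per and Cry genes. PER and CRY proteins then enter the nucleus and inhibit the pair that made them, and casein kinases mark PER proteins for degradation, which sets the length of the cycle. NPAS2 can take the place of CLOCK, and it is known mostly from the forebrain. REV-ERB and ROR receptors set the level of Arntl through their own response element, and proteins such as DBP act through the D-box. Clocks of this kind run in most cells, astrocytes among them.

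The labels name adult astrocytes, and totals on gene rows ran from 46263725 to 50066692 counts in AVE0991 libraries and from 44583296 to 49002304 in vehicle libraries. Genes of other brain cells were abundant throughout. In CPM, the counts scaled to library size, the 10 astrocyte markers summed to 9858 to 10801 in AVE0991 libraries and 8201 to 9769 in vehicle libraries. Of these 10, 9 had a log2 fold change of AVE0991 over vehicle above 0, with a median of 0.43. The groups did not overlap for 7 of them, beside 30.6% of all genes tested, and 0 had an edgeR adjusted p under 0.05. The part of this difference in the levels below was not tested. The 8 neuron markers summed to 3740 to 3882 against 3837 to 4301 CPM, and the 6 oligodendrocyte markers to 5470 to 11782 against 3609 to 7876 CPM. The 8 markers of cerebellar granule cells summed to 209, 2063 and 2024 CPM in replicates 1, 2 and 3 of the AVE0991 group, against 182 to 207 CPM in vehicle libraries. Purkinje cell markers, 5 in number, followed with 1039, 2443 and 3668 CPM, against 746 to 981 CPM. The 5 markers of forebrain excitatory neurons summed to 3790, 850 and 3198 CPM in replicates 1, 2 and 3 of the AVE0991 group, against 2277 to 4285 CPM in vehicle libraries, and AVE0991 replicate 2 was thus lowest. AVE0991 replicate 1 was highest of the 6 libraries in the 5 striatal markers, which summed to 724, 206 and 249 CPM in AVE0991 replicates 1, 2 and 3 and to 242 to 541 CPM in vehicle libraries. It was also highest in the 8 tested hypothalamic and suprachiasmatic markers, at 112, 17.6 and 27.2 CPM against 32.8 to 96.9 CPM in vehicle libraries. No marker on these lists that passed the filter on low counts was at 0 in any library. Of the 10 hypothalamic and suprachiasmatic markers, 8 passed it. AVE0991 replicates 2 and 3 therefore stand apart from the other libraries in cerebellar genes. The log2 fold changes of the 10 genes are also given below without them, although AVE0991 replicate 1 differs in regional genes of its own. In bulk RNA, fewer cells of a type and less RNA per cell cannot be told apart.

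**Figure D1:**
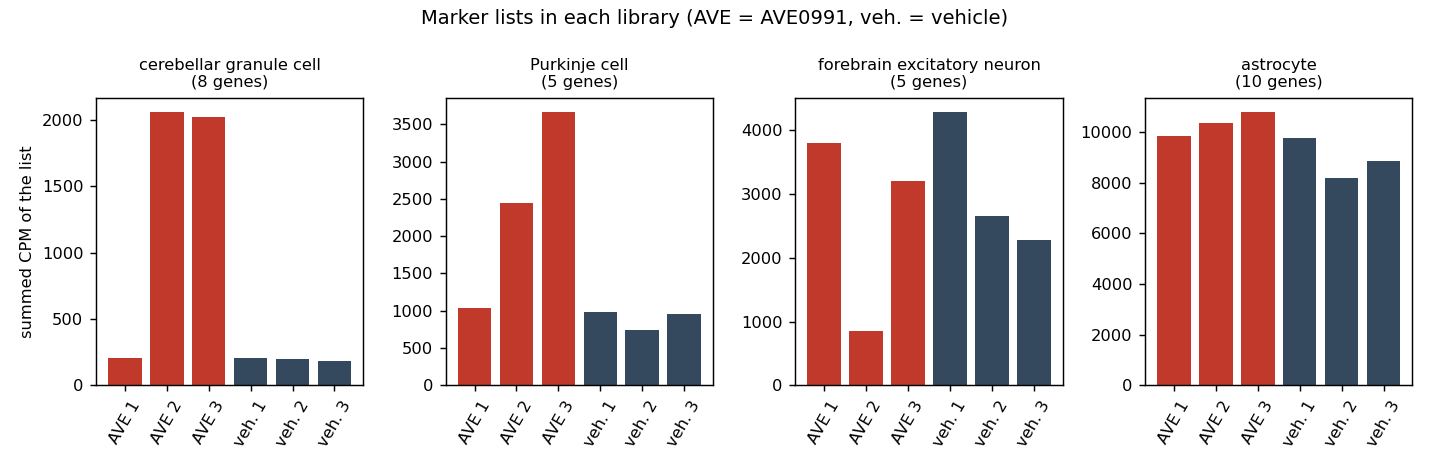
Summed CPM (y axis, linear from 0) of 4 marker lists in each AVE0991 library (red) and vehicle library (dark). Bars for cerebellar granule cells reach 2063 and 2024 CPM in AVE0991 replicates 2 and 3 and stay between 182 and 209 CPM in the other libraries, while the forebrain bar is lowest, at 850 CPM, in AVE0991 replicate 2.

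Levels of different genes were set side by side in FPKM as deposited by the authors, a level scaled to transcript length and library depth. Cry2 stood highest of the 10 genes, at 47.4 ± 4.84 FPKM in AVE0991 libraries and 44.2 ± 2.25 FPKM in vehicle libraries (SD, n = 3 each, as for all means here). Csnk1d came next at 38.1 ± 0.463 and 37.6 ± 1.04 FPKM, then Per1 at 34 ± 3.83 and 27.8 ± 1.61 FPKM and Csnk1e at 25.5 ± 1.47 and 27.3 ± 1.03 FPKM. The other 6 genes lay between 4.98 and 16 FPKM in every library and overlapped one another. Among neighbours in this order, Cry2 was above Csnk1d and Csnk1d above Per1 in 6 of 6 libraries, whereas Per1 was above Csnk1e in 4 of 6. Csnk1e was above Cry1 in 6 of 6 libraries, and Arntl was above Clock in 6 of 6. Cry1 and Npas2, Npas2 and Arntl, Clock and Per2, and Per2 and Per3 each changed places between libraries.

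In 3 of the families 1 member led in every library. Over the 6 libraries Per1 exceeded Per2 4.29-fold (mean log2 difference 2.10, SD 0.12, n = 6, exact two-sided sign-flip permutation p = 0.03125, 0.0469 after Benjamini-Hochberg adjustment over 6 pairs). It exceeded Per3 4.27-fold (2.09, SD 0.02, the same exact p and adjusted p). The log2 ratio of Per1 to Per3 in FPKM ran from 2.07 to 2.12 over the 6 libraries, and the groups overlapped. In CPM, which takes no account of transcript length, the ratio was 3.76, 3.56 and 3.78 in AVE0991 replicates 1, 2 and 3 and 3.43 to 3.52 in vehicle libraries, and the groups did not overlap. The length implied for Per3 ran from 5.19 to 5.65 kb. Cry2 exceeded Cry1 4.16-fold and Csnk1d exceeded Csnk1e 1.43-fold, each in 6 of 6 libraries with the same exact p and adjusted p. Per2 and Per3 were not shown to differ (mean log2 difference of Per2 over Per3 -0.0059, from -0.14 to 0.15, exact permutation p = 0.906, n = 6), nor were Clock and Npas2 (-0.55, from -1.64 to 0.31, exact permutation p = 0.0938, adjusted 0.112, n = 6). The smallest p that 6 libraries allow is 0.03125, and the 6 libraries hold both groups. FPKM depends on the transcript length that the authors' counting assigned.

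**Figure D2:**
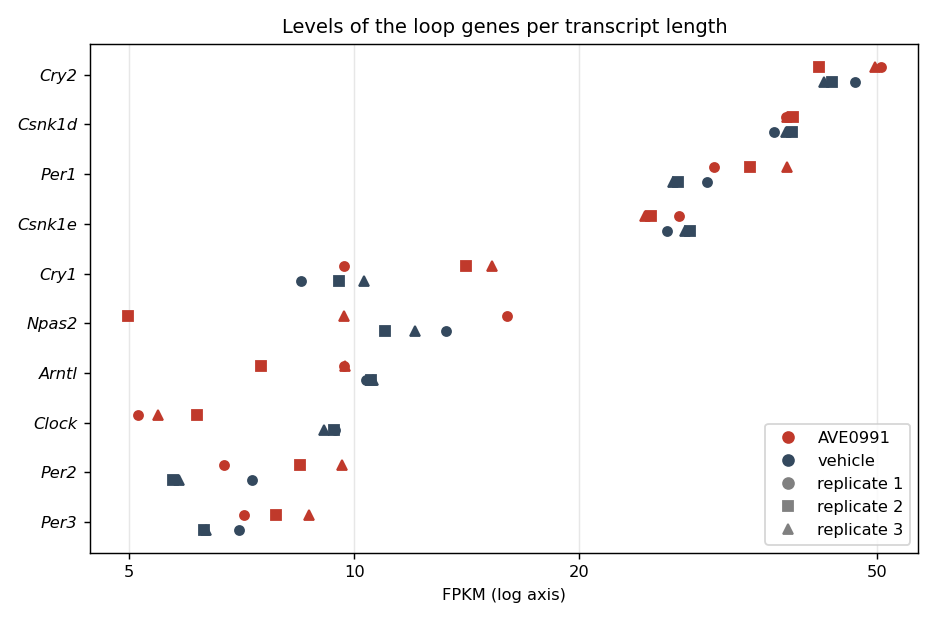
FPKM (x axis, log scale) of the 10 genes in each AVE0991 library (red, upper row of each gene) and vehicle library (dark, lower row), ordered by the mean of the 6 libraries, with replicates by marker shape. Cry2, Csnk1d, Per1 and Csnk1e form an upper group above 24 FPKM, and Npas2 has the widest spread, from 4.98 to 16 FPKM.

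Of the activators, Clock was lower in every AVE0991 library. Clock (gene ID 12753), the histone acetyltransferase partner of ARNTL, stood at 35.4, 50.8 and 44.5 CPM in replicates 1, 2 and 3 of the AVE0991 group, against 75.1, 67.8 and 72.5 CPM in vehicle replicates 1, 2 and 3. Every AVE0991 library lay below every vehicle library, and the lowest was AVE0991 replicate 1, where granule cell markers summed to 209 CPM and striatal markers to 724 CPM. The part of these tissue differences in the Clock level was not tested. The means were 43.5 ± 7.74 and 71.8 ± 3.67 CPM, 1.65-fold lower in AVE0991 libraries (log2 fold change of AVE0991 over vehicle -0.72, SE 0.14). With AVE0991 replicate 1 as the lone treated library the log2 fold change was -1.01. On the FPKM scale Clock averaged 5.59 ± 0.52 in AVE0991 libraries and 9.3 ± 0.176 in vehicle libraries.

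Clock also had the lowest GC content of the 10 genes, 40.9% in its longest GENCODE transcript, while the other 9 ran from 48.2% to 59.4%. The 1025 tested genes of 40 to 42% GC had a median log2 fold change of -0.38, with a middle range from -0.65 to -0.15, so Clock lay below the lower quartile of genes of like GC content. After a correction for GC content in each library the log2 fold change of Clock was -0.34. The part of GC content in the lower Clock level was not tested beyond this correction. The transcript length implied by counts and FPKM was 6.69, 7.66 and 7.49 kb for Clock in AVE0991 replicates 1, 2 and 3, against 7.86, 7.31 and 7.96 kb in vehicle replicates 1, 2 and 3, and the groups overlapped. For Npas2 and Per2 the implied length was nearly constant, at 3.88 to 3.92 kb and 5.61 to 5.63 kb.

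Arntl (gene ID 11865), the partner of both CLOCK and NPAS2, was close to level between the groups. It stood at 28.2, 22.9 and 29.9 CPM in replicates 1, 2 and 3 of the AVE0991 group, against 28.7, 28.6 and 29.3 CPM in vehicle libraries (log2 fold change -0.10, SE 0.12). Only AVE0991 replicate 2 lay clearly below the vehicle libraries, and without it the log2 fold change was 0.01. With AVE0991 replicate 1 as the lone treated library the value was -0.027. In FPKM, which is not scaled by TMM, all 3 AVE0991 libraries (9.69, 7.5 and 9.73) lay below all 3 vehicle libraries (10.35 to 10.6), so whether the groups overlap depends on the scale.

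Npas2 (gene ID 18143), the forebrain counterpart of Clock, was the most uneven member. It stood at 64.2, 20.9 and 40.8 CPM in replicates 1, 2 and 3 of the AVE0991 group, against 52.6, 42.5 and 47.2 CPM in vehicle replicates 1, 2 and 3. The AVE0991 libraries held both the highest and the lowest value of the 6. The lowest library was the one with the lowest sum of forebrain markers, 850 CPM, and the highest, AVE0991 replicate 1, had the highest sum of striatal markers, 724 CPM. Whether the share of these tissues bears on Npas2 was not tested. Its log2 fold change of -0.18 (SE 0.37) was 0.15 without AVE0991 replicate 2, -0.62 without AVE0991 replicate 1 and 0.45 with AVE0991 replicate 1 as the lone treated library, so 1 library decides its sign. The ratio of Npas2 to Clock in FPKM was 3.11, 0.808 and 1.77 in AVE0991 replicates 1, 2 and 3, against 1.41, 1.17 and 1.33 in vehicle libraries. Npas2 thus outnumbered Clock per length in every library except AVE0991 replicate 2.

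**Figure D3:**
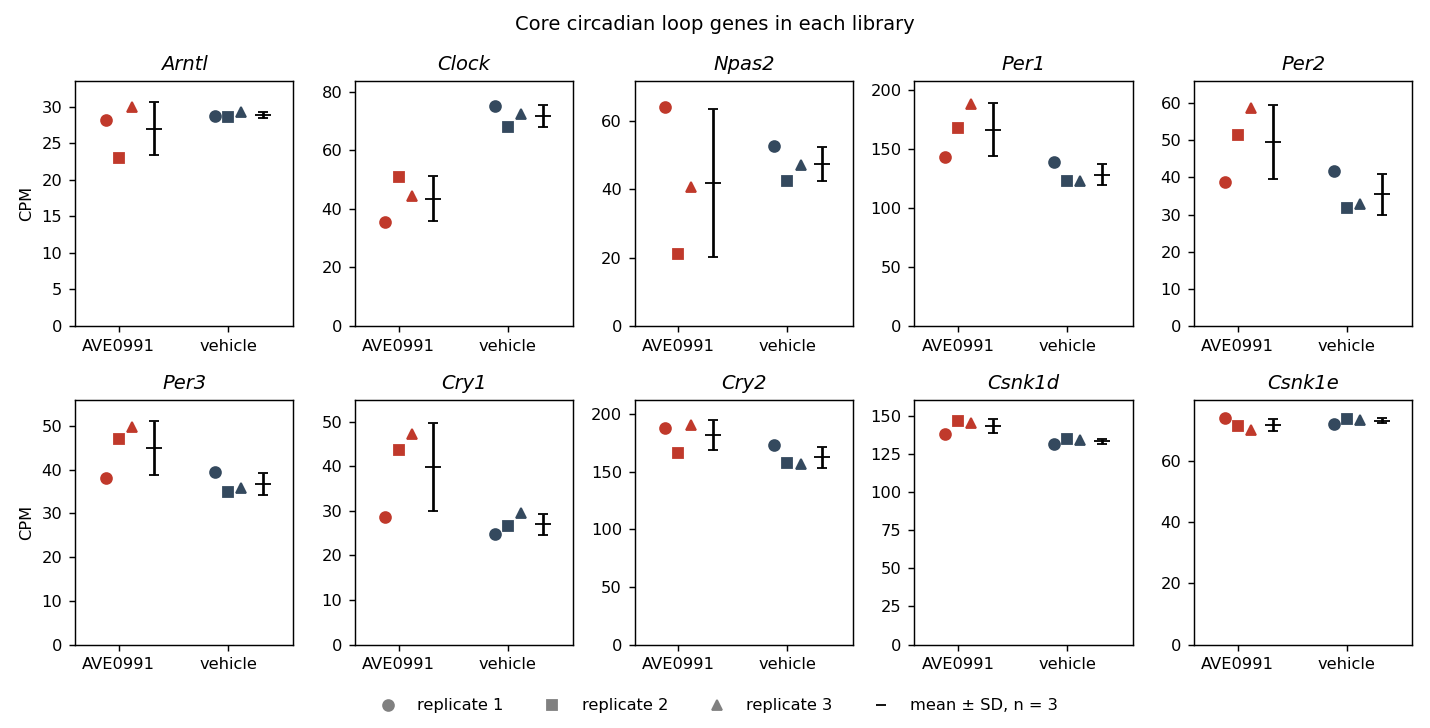
CPM (y axis, linear from 0) of each gene by group, AVE0991 left in red and vehicle right in dark, with marker shape for the replicate and the black bar for mean ± SD of 3 libraries. Clock separates the groups (35.4 to 50.8 against 67.8 to 75.1 CPM), while for Per2, Per3 and Cry1 AVE0991 replicate 1 lies among the vehicle libraries.

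The Per and Cry genes, the repressors of the loop, were higher on average in AVE0991 libraries, and for Per1, Per2, Per3 and Cry1 replicates 2 and 3 carried most of the difference. E-box and D-box sequences are the elements through which the loop drives these genes. The stretches before the start sites of Per1, Per3 and Cry1, whose windows held such letters, are shown. They are the 250 bases upstream of a RefSeq start site on GRCm38.p6, 5′ to 3′ on the gene's strand, with motif matches in capitals.
Per1, chr11:69098699-69098948, plus strand: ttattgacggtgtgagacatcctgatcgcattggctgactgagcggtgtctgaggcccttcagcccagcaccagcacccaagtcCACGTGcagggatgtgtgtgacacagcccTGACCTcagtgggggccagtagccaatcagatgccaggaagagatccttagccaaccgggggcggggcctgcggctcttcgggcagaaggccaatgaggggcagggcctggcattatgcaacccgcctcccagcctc
Per3, chr4:151044666-151044915, minus strand: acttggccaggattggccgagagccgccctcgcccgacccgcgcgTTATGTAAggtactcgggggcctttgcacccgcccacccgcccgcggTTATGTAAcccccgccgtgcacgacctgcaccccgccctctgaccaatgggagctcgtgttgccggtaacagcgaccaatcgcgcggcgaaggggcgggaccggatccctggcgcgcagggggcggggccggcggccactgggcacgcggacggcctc
Cry1, chr10:85185055-85185304, minus strand: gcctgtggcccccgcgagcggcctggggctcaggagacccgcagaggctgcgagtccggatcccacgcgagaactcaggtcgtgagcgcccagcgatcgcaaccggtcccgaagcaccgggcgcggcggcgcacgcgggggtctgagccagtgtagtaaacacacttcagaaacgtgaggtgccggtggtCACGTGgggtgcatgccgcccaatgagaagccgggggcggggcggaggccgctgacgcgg

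The letters searched, on both strands, were CACGTG for the E-box, TTATGTAA and TTACGTAA for the D-box, AGGTCA for the REV-ERB and ROR half-site and TGACGTCA for the cAMP response element. They were searched in RefSeq windows from 250 bases before to 50 after each start. Per2 and Csnk1d had no window and were not searched, and the other 8 of the 10 members had 1 or more windows, 15 in all. In these windows the matches did not overlap one another. The E-box letters begin 166 bases before the Per1 start shown and 60 bases before the Cry1 start, and 7.15% of all 32851 windows hold them. The D-box letters occur at 2 places in the Per3 window, 205 and 158 bases before the start, and 1.06% of all windows hold them. The half-site occurs in windows of Per1, Clock and Arntl, and in 16.3% of all windows. The letters of the cAMP response element occur in 0 of the 15 windows and in 1.79% of all windows. The windows of Cry2, Npas2 and Csnk1e held none of the letters searched. Per1 has a second window and Clock and Arntl have further windows with none of these letters. These are matches of letters, not measured binding.

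Per1 (gene ID 18626), the period gene that also answers to cAMP and glucocorticoid signals, stood at 143, 167 and 188 CPM in replicates 1, 2 and 3 of the AVE0991 group, against 138, 123 and 123 CPM in vehicle replicates 1, 2 and 3. All AVE0991 libraries lay above all vehicle libraries, but the gap between the lowest AVE0991 library and the highest vehicle library was small. The means were 166 ± 22.5 and 128 ± 9.04 CPM (log2 fold change 0.38, SE 0.13, 1.30-fold). With replicate 1 as the lone AVE0991 library it was 0.17, and after the GC correction 0.14. Per1 has the highest GC content of the 10 genes, 59.4%.

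Per2 (gene ID 18627), the period gene whose loss weakens the rhythm most in mice, stood at 38.7, 51.3 and 58.6 CPM in replicates 1, 2 and 3 of the AVE0991 group, against 41.7, 31.8 and 32.8 CPM in vehicle replicates 1, 2 and 3. AVE0991 replicate 1 lay inside the vehicle range and replicates 2 and 3 above it. The log2 fold change was 0.48 (SE 0.18), 0.14 with AVE0991 replicate 1 as the lone treated library and 0.29 after the GC correction.

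Per3 (gene ID 18628), a period gene that the core rhythm can do without, stood at 38, 47 and 49.8 CPM in replicates 1, 2 and 3 of the AVE0991 group, against 39.5, 34.9 and 35.8 CPM in vehicle replicates 1, 2 and 3. The groups overlapped through AVE0991 replicate 1 and vehicle replicate 1. The log2 fold change was 0.29 (SE 0.13), 0.06 with AVE0991 replicate 1 as the lone treated library and 0.14 after the GC correction. In FPKM the Per3 groups did not overlap, with 7.12 in AVE0991 replicate 1 against 7.02 in vehicle replicate 1.

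Cry1 (gene ID 12952), the late-acting cryptochrome repressor, had the largest positive log2 fold change of the 10 genes by edgeR with all 6 libraries. Per2 was higher than Cry1 by limma-voom (0.65 against 0.60) and without vehicle replicate 1 (0.64 against 0.52). With AVE0991 replicate 1 as the lone treated library Npas2 (0.45), Cry2 (0.22), Per1 (0.17) and Per2 (0.14) were higher than Cry1. Cry1 stood at 28.6, 43.6 and 47.1 CPM in replicates 1, 2 and 3 of the AVE0991 group, against 24.7, 26.7 and 29.5 CPM in vehicle replicates 1, 2 and 3. AVE0991 replicate 1 again lay inside the vehicle range. The means were 39.8 ± 9.85 and 26.9 ± 2.41 CPM (log2 fold change 0.56, SE 0.19, 1.48-fold), with 0.09 for AVE0991 replicate 1 as the lone treated library and 0.44 after the GC correction.

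Across Per1, Per2, Per3 and Cry1 the log2 difference from the vehicle mean was 0.050 to 0.16 in AVE0991 replicate 1, 0.36 to 0.70 in replicate 2 and 0.44 to 0.81 in replicate 3. All 4 genes were lowest in replicate 1 and highest in replicate 3 of the AVE0991 libraries, an order that 18.5% of all genes tested showed. Replicates 2 and 3 lay above every vehicle library for these 4 genes, as they did for 25.6% of all genes tested. The same 2 libraries held the cerebellar granule and Purkinje cell genes, at sums of 2024 to 2063 and 2443 to 3668 CPM. The part of that tissue difference in the Per and Cry1 levels was not tested.

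Cry2 (gene ID 12953), the other cryptochrome, did not follow this pattern. It stood at 188, 166 and 190 CPM in replicates 1, 2 and 3 of the AVE0991 group, against 173, 157 and 157 CPM in vehicle replicates 1, 2 and 3, and the groups overlapped. Its log2 fold change of 0.16 (SE 0.10) was -0.05 after the GC correction and 0.22 with AVE0991 replicate 1 as the lone treated library.

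**Figure D4:**
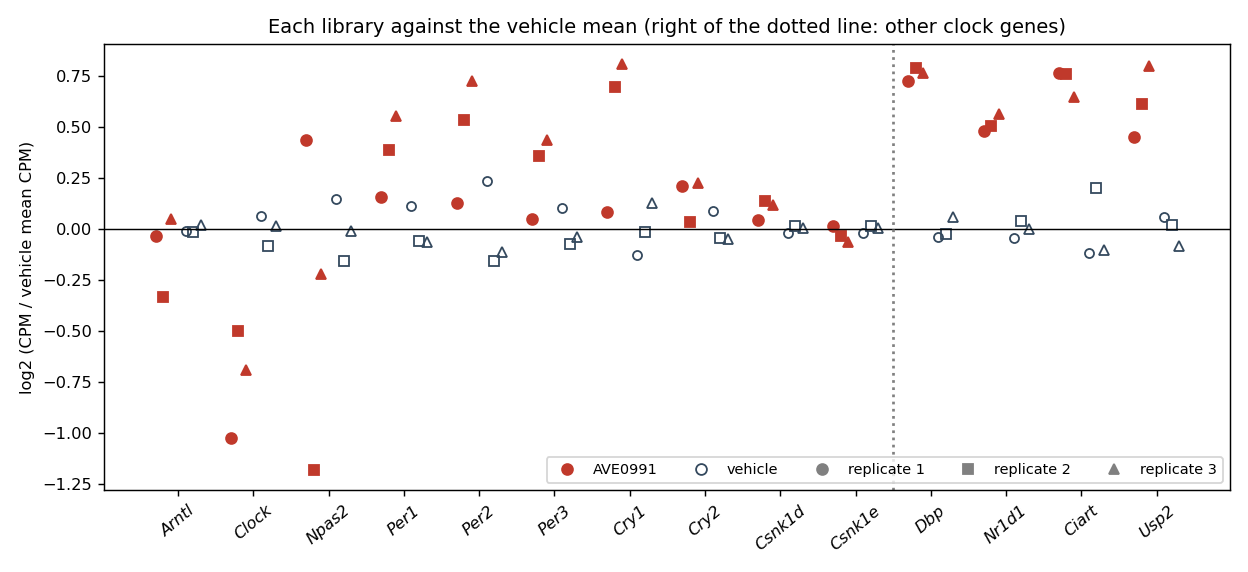
Log2 ratio of each library's CPM to the vehicle mean (y axis) for the 10 genes and, right of the dotted line, the 4 other clock genes with the smallest p, with AVE0991 filled red, vehicle open and replicates by shape. Per1, Per2, Per3 and Cry1 lie at 0.050 to 0.16 in AVE0991 replicate 1 and at 0.36 to 0.81 in replicates 2 and 3, whereas Clock is below the vehicle libraries, and Dbp, Nr1d1, Ciart and Usp2 above them, in all 3.

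The casein kinase genes, whose products phosphorylate PER proteins, differed little between groups and libraries. Csnk1d (gene ID 104318) stood at 138, 147 and 145 CPM in replicates 1, 2 and 3 of the AVE0991 group, against 131, 135 and 134 CPM in vehicle libraries (log2 fold change 0.10, SE 0.09). The groups did not overlap in CPM but did in FPKM. The log2 fold change was -0.08 after the GC correction and 0.055 with AVE0991 replicate 1 as the lone treated library. Csnk1e (gene ID 27373), the gene of the hamster tau mutation, stood at 73.8, 71.3 and 69.9 CPM in replicates 1, 2 and 3 of the AVE0991 group, against 72, 73.6 and 73.2 CPM in vehicle libraries (log2 fold change -0.03, SE 0.08, -0.24 after the GC correction). With AVE0991 replicate 1 as the lone treated library the Csnk1e value was 0.024.

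Taking the 10 genes as a set, 6 had a log2 fold change above 0 and 4 below, with a median of 0.13 against -0.0069 for all genes tested. After the GC correction 4 were above 0 and 6 below, with a median of -0.067 against -0.032 for all genes. The groups did not overlap for 3 of the 10, Clock, Per1 and Csnk1d, a share of 30% beside 30.6% of all genes tested. In FPKM the groups did not overlap for 4, Arntl, Clock, Per1 and Per3, beside 27.6% of all genes. By edgeR's quasi-likelihood test, adjusted by Benjamini-Hochberg over all genes, 0 of the 10 passed a threshold of 0.05, beside 0.864% of all genes (0.0344% higher and 0.83% lower), and 4 had an unadjusted p under 0.05, beside 23.6% of all genes. DESeq2 called 1 of the 10, Clock, beside 10.9% of the genes it gave an adjusted p (4.58% higher and 6.29% lower). Limma-voom called 3, Clock lower and Per1 and Per2 higher, beside 6.36% of all genes (2.58% higher and 3.78% lower). Without AVE0991 replicate 1 edgeR called 4, Clock lower and Per1, Per2 and Cry1 higher, beside 11.4% of all genes tested (6.63% higher and 4.76% lower). In the authors' deposited table Clock, 1 of the 10, had a q-value under 0.05 (log2 fold change -0.70), beside 4.71% of gene rows. The fold changes of the authors' deposited table differed from those of edgeR by at most 0.03 on the log2 scale for these genes. As the members were chosen with this contrast known, nothing is read from these counts.

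**Figure D5:**
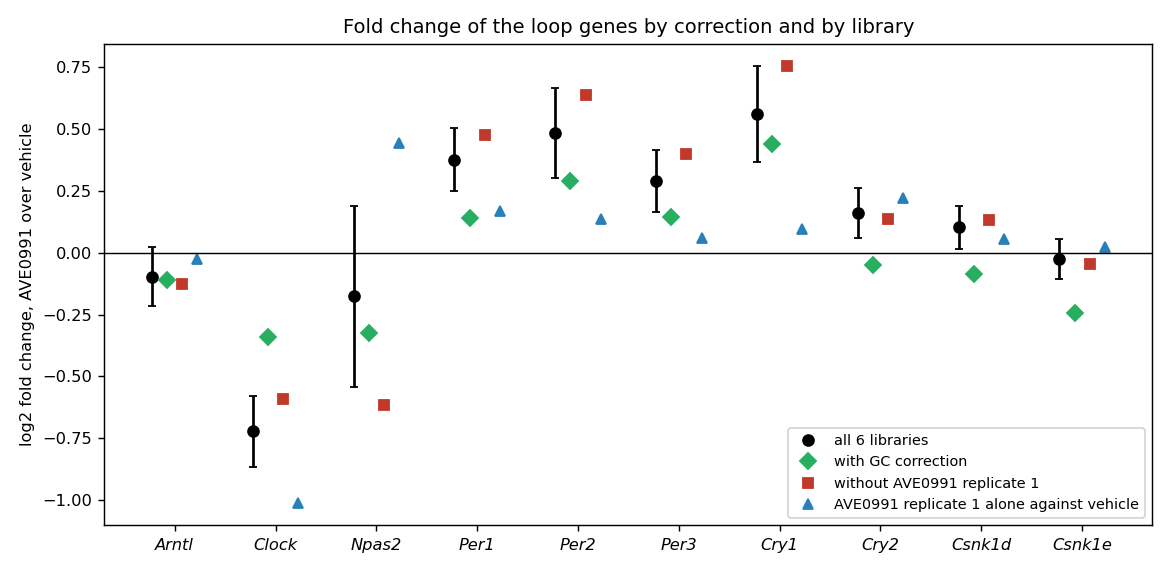
Log2 fold change of AVE0991 over vehicle (y axis) of the 10 genes with all 6 libraries (black, bar for the SE), after the GC correction (green), without AVE0991 replicate 1 (red) and with AVE0991 replicate 1 as the lone treated library (blue). Clock is below 0 in all 4 fits, from -1.01 to -0.34, and Cry1 ranges from 0.09 to 0.75.

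Ratios within a library set the repressors against the activators. Cry1 over Clock in FPKM was 1.88, 2.29 and 2.79 in AVE0991 replicates 1, 2 and 3, against 0.901, 1.02 and 1.13 in vehicle libraries. Per1 over Arntl was 3.12, 4.51 and 3.89 in AVE0991 replicates 1, 2 and 3, against 2.87, 2.58 and 2.52 in vehicle libraries. For both ratios every AVE0991 library lay above every vehicle library. The pairs were picked after their values were known, so the ratios add no support. The first restates the members with the largest positive and the largest negative log2 fold change by edgeR with all 6 libraries.

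Other clock genes were taken from 4 lists chosen by role and with some of their results known, so their counts and p-values are a description. Of 36 such genes, all of them tested, 1 was called higher and 0 lower by edgeR, beside 0.0344% and 0.83% of all genes tested. The groups did not overlap for 22, a share of 61.1% beside 30.6% of all genes tested. Dbp, which encodes a D-box activator that the CLOCK and ARNTL pair drives, rose 1.69-fold (115, 120 and 118 CPM in the AVE0991 group against 67.6, 68.4 and 72.3 CPM in the vehicle group, log2 fold change 0.76, SE 0.08, edgeR adjusted p = 0.0374). Its log2 fold change was 0.73 with AVE0991 replicate 1 as the lone treated library and 0.53 after the GC correction, where it no longer passed. With any single library other than AVE0991 replicate 1 left out, 0 of the 36 genes were called, so Dbp did not pass there either. Without AVE0991 replicate 1, 8 of the 36 were called, beside 11.4% of all genes tested.

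Nr1d1, which encodes the REV-ERB alpha repressor of Arntl, stood at 189, 192 and 200 CPM in the AVE0991 group, against 131, 139 and 135 CPM in the vehicle group (log2 fold change 0.52, edgeR adjusted p = 0.0509). Ciart, a repressor of the CLOCK and ARNTL pair, stood at 14 ± 0.624 and 8.5 ± 1.1 CPM (0.72, adjusted p = 0.059). Usp2, a rhythmic ubiquitin protease, stood at 97.1 ± 11.7 and 62.8 ± 3.13 CPM (0.63, adjusted p = 0.0595). For Dbp, Nr1d1, Ciart and Usp2 all 3 AVE0991 libraries lay above all 3 vehicle libraries, as they did for 14.3% of all genes tested. These genes were picked by smallest p in the same comparison, so their separation is a description and supports nothing. With AVE0991 replicate 1 as the lone treated library the log2 fold changes of Nr1d1, Ciart and Usp2 were 0.49, 0.77 and 0.46. Those of Per1, Per2, Per3 and Cry1 were 0.17, 0.14, 0.06 and 0.09. Rorb, a ROR receptor gene, stood at 47.6 ± 7.58 and 81.7 ± 11.7 CPM (-0.78, adjusted p = 0.0706). With AVE0991 replicate 1 as the lone treated library the log2 fold change was -0.53 for Rorb. The GC correction brought Nr1d1 to 0.30, Ciart to 0.58, Usp2 to 0.45 and Rorb to -0.45.

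The 15 auxiliary transcription factors had a median log2 fold change of 0.30, with 10 above 0 and 5 below. The 10 genes of clock protein modification and turnover had a median of -0.02, with 0 called. Of these 10, 3 had an unadjusted p under 0.05, beside 23.6% of all genes tested. Beside Usp2 its members with small p-values included Csnk2b (0.30, SE 0.11) and Fbxw11 (0.31, SE 0.13). For Fbxw11, AVE0991 replicates 1, 2 and 3 had 162, 218 and 215 CPM, and vehicle libraries 159 to 161 CPM, and its log2 fold change was 0.031 with AVE0991 replicate 1 as the lone treated library. The 8 cofactors had a median of 0.19 and 0 called, led by Nono (0.25, SE 0.09), Wdr5 (0.23, SE 0.09), Hdac3 (0.21, SE 0.11) and Crebbp (0.18, SE 0.10). Of the 3 output genes Nampt (-0.35, SE 0.11), Noct (-0.20, SE 0.10) and Wee1 (0.071, SE 0.13), 0 were called. After the GC correction the values were 0.13 for Csnk2b, 0.31 for Fbxw11, 0.21 for Nono, 0.11 for Wdr5, 0.23 for Hdac3 and 0.053 for Crebbp. They were 0.069 for Nampt, -0.12 for Noct and 0.0037 for Wee1.

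Pathways that feed into Per1 were looked at by 2 further lists. Of 9 activity and CREB-induced genes 8 were below 0 and 0 were called, with a median of -0.38 against -0.0069 for all genes tested. An unadjusted p under 0.05 was reached by 3, beside 23.6% of all genes tested. The groups did not overlap for 3, beside 30.6%. The list summed to 557, 294 and 569 CPM in AVE0991 replicates 1, 2 and 3, against 731, 482 and 568 CPM in vehicle replicates 1, 2 and 3. AVE0991 replicate 2 was thus lowest, as in the forebrain markers. The 9 genes were led by Fos, which had 14.6, 12.1 and 15.3 CPM in the AVE0991 group and 27.6, 16.8 and 24.5 CPM in the vehicle group (-0.71, SE 0.20). Crem followed (-0.46, SE 0.15), while Dusp1 stood at 0.24 (SE 0.09). After the GC correction Fos stood at -0.85, Crem at -0.23 and Dusp1 at 0.054. All 7 glucocorticoid-induced genes were above 0, beside 49.3% of all genes tested, with a median of 0.37 and 0 called. Of the 7, 1 had an unadjusted p under 0.05, beside 23.6% of all genes tested. The groups did not overlap for 1 of the 7, beside 30.6%. Their sum was 543, 795 and 683 CPM in replicates 1, 2 and 3 of the AVE0991 group, against 464 to 534 CPM in vehicle libraries. Tsc22d3, a glucocorticoid-induced leucine zipper gene, stood at 106, 207 and 153 CPM in replicates 1, 2 and 3 of the AVE0991 group, against 61.6, 84 and 88.8 CPM in vehicle libraries (0.99, SE 0.26, and 0.44 with AVE0991 replicate 1 as the lone treated library). The groups overlapped for Sult1a1, a sulfotransferase gene, at 8.61 ± 1.18 and 6.55 ± 1.47 CPM (0.39, SE 0.21). They also overlapped for Fkbp5, a cochaperone gene of the glucocorticoid receptor, at 40.2 ± 10.6 and 31.0 ± 5.00 CPM (0.37, SE 0.21). The GC correction left Tsc22d3 at 0.97 and Sult1a1 at 0.40, and brought Fkbp5 to 0.25.

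The genes whose profile over the 6 libraries was most like that of a member were searched among 13473 other named protein-coding genes with a mean of at least 1 CPM, by Euclidean distance of log2 CPM centred on its mean. For Arntl these included Pex3 (distance 0.0443), Fuom (0.0638), Atg101 (0.096) and Rbm28 (0.0985), all of them lowest in AVE0991 replicate 2. For Per2 they were Fbxl12 (0.103), Slc35d1 (0.131), Ajm1 (0.145), Dedd2 (0.149) and Rab43 (0.162), all of them highest in AVE0991 replicate 3. With 6 libraries and this many genes, close profiles describe these libraries only.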

How the data were processed

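Trizol-extracted RNA was depleted of ribosomal RNA and made into dUTP libraries, per the labels' protocols. The submitters' processing notes name HISAT and mm9. The sources used here do not give the counting program, the annotation or the use of strand. The authors deposited estimated counts (81.6% whole as written) and FPKM per library, and a table of log2 fold changes with DESeq2 p-values and q-values per the file headers, whose sign was AVE0991 over vehicle. The FPKM unit was worked out from the values. Estimated counts of gene rows were rounded and fitted with edgeR 4.0.16 in R 4.3.3 (filterByExpr, TMM, robust quasi-likelihood F test, Benjamini-Hochberg over 20363 genes). Standard errors were obtained from the log2 fold change and the F statistic. CPM uses TMM library sizes. Alternatives used DESeq2 1.42.0, limma 3.58.1 with voom, other filters and scalings, single libraries left out, and a per-library spline on GC content of the longest GENCODE M21 transcript (16865 of the genes had one). Paralogs were compared on log2(FPKM + 0.01), paired within libraries. Circular RNA rows carry no host gene and were not analysed here as members. Promoter windows come from RefSeq on GRCm38.p6. Their coordinates are the only ones given, because the labels name mm9 for the deposited values.

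The members and lists were chosen with earlier results of these data known. Named genes were all members, each called gene of the 4 other clock lists with up to 4 others by smallest p, 5 nearest profiles of Arntl and of Per2, and up to 3 genes of each input list by smallest p. Some genes that this rule takes are not reported here. No replicates matched within sampling noise (lowest chi-square 16.4 per gene). On simulated counts for the 20363 genes of AVE0991 against vehicle, the test recovered 28% of 100 genes changed by a log2 of 1 and 80% of 100 changed by a log2 of 2, and 16 of 124 calls were false.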

Additional observations from a re-analysis of the deposited data

How the results depend on the processing

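Over 18 alternative settings Clock stayed below 0 and Per1, Per2, Per3 and Cry1 above 0, while Npas2, Cry2 and Csnk1d changed sign in 2 settings each and Arntl and Csnk1e in 1 each. Of 180 member values, 160 moved by less than 1 SD between replicates and 20 by more, most of them under a GC correction or with AVE0991 replicate 1 as the lone treated library, which is assumed to vary like vehicle. The median over the members, 0.13, was -0.067 with the GC correction, -0.067 with the replicate block and GC correction together, and 0.057 by limma on log2(FPKM + 0.1). Members called, 0 by the edgeR fit (0.864% of all genes tested), were 1 by DESeq2 (10.9%) and 3 by limma-voom (6.36%). They were 1 without a filter on low counts, beside 437 of 33731 genes, and 1 by limma on FPKM, beside 239 of 20363 genes. Without AVE0991 replicate 1 they were 4, beside 11.4% of all genes tested, and with any other single library left out they were 0.

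Other clock genes called, 1 of 36 by the edgeR fit, were 6 by DESeq2, 5 by limma-voom, 5 without a filter and 3 with a minimum mean of 1 CPM. Without AVE0991 replicate 1 they were 8, and with any other single library left out they were 0. They were 0 with the GC correction, with the replicate block, with both together, with circular RNA rows in the same fit, and without AVE0991 replicates 2 and 3. All genes called, 176 of 20363 by the edgeR fit, were 2100 of 19309 by DESeq2 and 1295 of 20363 by limma-voom. They were 437 of 33731 without a filter, 346 of 15762 with that minimum mean and 239 of 20363 by limma on FPKM. With the GC correction they were 1, with circular RNA rows 2, and with the replicate block, alone or together with the GC correction, 0. Without AVE0991 replicate 1 they were 2381 of 20918, and with any other single library left out they were 0. The cause of these shifts was not tested.

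Replicate numbers were not treated as pairs in the edgeR fit. Same-numbered libraries deviated from their group means with correlations of -0.02, 0.09 and -0.35 across genes, and differently numbered libraries with correlations from -0.32 to 0.39. With 3 libraries per group these values cannot show whether the libraries were paired.

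With 5 libraries the sign-flip test cannot go below 0.0625, so no paralog pair passes; mean log2 differences then ran from 2.07 to 2.13 for Per1 over Per2, 2.09 to 2.10 for Per1 over Per3, -2.16 to -1.98 for Cry1 over Cry2 and 0.50 to 0.53 for Csnk1d over Csnk1e. Per2 over Per3, at -0.0059, ran from -0.036 to 0.020, and was 0.074 with CPM per kilobase of the longest GENCODE transcript.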
